A study of Mus musculus with 6 samples.

Results

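Galectins are proteins that bind galactose-containing sugar chains on cell surfaces and in the extracellular matrix. The genes examined here were Lgals1, Lgals3, Lgals8, Lgals9 and Lgals3bp, and their members were the probe sets whose platform gene symbol is exactly one of these names. The rule found 4 probe sets among the 45037 on the array, 1 each for Lgals1, Lgals3, Lgals9 and Lgals3bp. Lgals8 had no such probe set, as both probe sets that carry its name are annotated to a second gene as well, so it was left unmeasured. RNA levels were read on Affymetrix HT MG-430PM arrays, with 3 arrays from Klf3-/- mice (labelled KLF3 KO) and 3 from WT mice, 1 array per mouse. All mice were male FVB/NJ littermates aged 12 weeks, bred from heterozygous crosses and kept on chow at 22 °C without treatment, and the deletion is global, so that the sorted cells and their surroundings both lacked KLF3. Each array held RNA of live cells of high side scatter that stained for CD45, CD11b, F4/80 and Siglec-F, sorted as eosinophils from the stromal vascular fraction (SVF) of inguinal subcutaneous adipose tissue (subcut AT).

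Lgals1 encodes a galectin with a single sugar-binding domain that works as a dimer, and Lgals3 encodes the chimera-type galectin, in which a flexible collagen-like tail lets several molecules assemble on a glycan surface. Lgals9 encodes a tandem-repeat galectin with a sugar-binding domain at each end, as does Lgals8. Lgals3bp encodes a secreted, heavily glycosylated protein with a scavenger receptor domain, which is not itself a galectin but is a ligand for galectins. KLF3 is a transcriptional repressor that binds CACCC boxes and related GC-rich sites. Lgals3 is a reported KLF3 target, and its product galectin-3 has been proposed to attract eosinophils.

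The sequences upstream of Lgals3, and of Lgals9 and Lgals3bp for comparison, are shown because a KLF factor acts through such motifs, while binding itself was not measured on these arrays. Each is the 250 bases before the annotated start, read 5′ to 3′ on the gene's strand, from RefSeq (GRCm38.p6), where 3 of the 4 measured genes had an entry. Capitals mark matches on either strand to CACCC or to the wider form CCNCNCCC.
Lgals3 (chr14:47373610-47373859, plus strand): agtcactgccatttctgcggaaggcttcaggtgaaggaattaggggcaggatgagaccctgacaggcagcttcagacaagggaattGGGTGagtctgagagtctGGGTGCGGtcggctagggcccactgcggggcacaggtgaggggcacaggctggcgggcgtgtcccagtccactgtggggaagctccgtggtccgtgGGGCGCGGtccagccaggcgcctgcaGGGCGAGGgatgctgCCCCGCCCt
Lgals9 (chr11:78984925-78985174, minus strand): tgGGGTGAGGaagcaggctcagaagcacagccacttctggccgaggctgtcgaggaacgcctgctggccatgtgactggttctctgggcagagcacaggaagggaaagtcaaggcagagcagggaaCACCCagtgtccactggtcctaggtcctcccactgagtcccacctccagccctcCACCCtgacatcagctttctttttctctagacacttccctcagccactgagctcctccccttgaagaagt
Lgals3bp (chr11:118401960-118402209, minus strand): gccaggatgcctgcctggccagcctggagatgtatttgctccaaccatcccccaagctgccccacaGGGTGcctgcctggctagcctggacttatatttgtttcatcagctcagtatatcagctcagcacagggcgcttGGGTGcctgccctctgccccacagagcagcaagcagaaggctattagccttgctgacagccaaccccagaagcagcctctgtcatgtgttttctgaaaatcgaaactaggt
The Lgals3 sequence held 2 matches to CACCC and 4 to CCNCNCCC, of which 1 of each overlapped. The Lgals9 sequence held 3 and 1, with 1 overlap, and the Lgals3bp sequence held 2 and 0. Of 32851 upstream sequences of the same length in the table, 52% held CACCC and 45.9% held CCNCNCCC, so the presence of either is common.

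The deposited values are linear intensities, and their array medians differed by up to 1.94-fold. Quantile normalisation of the log2 values was therefore the main scale, and both forms are given. Taking all probe sets together, the median Klf3-/- to WT difference was −0.03 log2 units after normalisation and 0.13 as deposited, and a value as deposited is read against that shift. Of 6 probe sets for Klf3 itself, 5 lay above the WT range on all Klf3-/- arrays and 1 lay below it, with log2 fold changes of −1.01 to 2.83, and they leave the genotype unchecked, as their place relative to the disrupted sequence is unknown here. A background level of 5.10 log2 units was taken from 44 olfactory receptor probe sets. All 4 galectin probe sets lay above it, whereas of the 8 measured eosinophil markers 2 did, Prg3 (5.20) and Ltc4s (5.13), and the other 6, Siglecf, Ccr3, Epx, Prg2, Il5ra and Alox15, lay below. The word eosinophils thus stands for the sorted samples. In such bulk samples fewer cells of a type and less RNA per cell cannot be told apart.

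Lgals1 had a higher mean in Klf3-/- eosinophils on both scales, and it did not pass the test over all probe sets. As deposited, its intensities were 2677, 3271 and 2583 in Klf3-/- mice 1 to 3, against 1482, 2746 and 1223 in WT mice 1 to 3. WT mouse 2 lay within the Klf3-/- range, and the other WT mice lay below it. After normalisation the log2 intensities were 11.29, 11.22 and 11.64 in Klf3-/- mice and 10.75, 10.82 and 10.92 in WT mice. Every Klf3-/- array was then above every WT array, and the WT arrays lay close together. Within replicate numbers 1 to 3 the differences were 0.54, 0.40 and 0.72 log2 units. The log2 mean was 11.38 ± 0.23 in Klf3-/- mice and 10.83 ± 0.08 in WT mice (SD, n = 3 each). This is a log2 fold change of 0.55 with a standard error of 0.19 and a 95% interval of 0.10 to 1.01, which is 1.47-fold. In limma its unadjusted p was 0.0228 and its adjusted p over all probe sets was 0.868, so it did not pass. An exact permutation test (two-sided) gave p = 0.1 after normalisation, the smallest that 3 mice against 3 allow, and p = 0.3 as deposited. The unadjusted limma p was 0.0725 without WT mouse 1 and 0.0737 without Klf3-/- mouse 3. With the replicate number as a block the standard error was 0.18 and the adjusted p from limma was 0.679.

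Lgals3 also had a higher mean in Klf3-/- eosinophils without passing the test, and whether the genotypes overlapped differed between the scales. The deposited intensities were 2048, 1762 and 1838 in Klf3-/- mice and 1424, 1657 and 1003 in WT mice. The lowest Klf3-/- value thus exceeded the highest WT value, and the means were 1883 ± 148 in Klf3-/- mice and 1361 ± 331 in WT mice (SD, n = 3 each). After normalisation the log2 intensities were 10.90, 10.16 and 11.18 in Klf3-/- mice and 10.69, 10.04 and 10.65 in WT mice. Klf3-/- mouse 2 then lay below WT mice 1 and 3, and mouse 2 was the lowest of each genotype. Within replicate numbers 1 to 3 the Klf3-/- array was the higher one on both scales, with differences of 0.21, 0.13 and 0.53 log2 units after normalisation and of 0.52, 0.09 and 0.87 as deposited (exact paired permutation p = 0.25 after normalisation, the smallest that 3 pairs allow). The normalised mean was 10.75 ± 0.52 in Klf3-/- mice and 10.46 ± 0.37 in WT mice (SD, n = 3 each). This is a log2 fold change of 0.29 (standard error 0.32, 95% interval −0.46 to 1.04, adjusted p = 0.958 from limma). The interval runs up to 2.06-fold higher and down to 0.726-fold. With the replicate number as a block the standard error was 0.19 and the adjusted p from limma was 0.788. An exact permutation test (two-sided) gave p = 0.4 after normalisation and p = 0.1 as deposited, while the Mann-Whitney test, exact and one-sided, gave p = 0.2 and p = 0.05 on these scales, the smallest for this design. The normalised log2 fold change was 0.08 without WT mouse 2, 0.07 without Klf3-/- mouse 3 and 0.60 without Klf3-/- mouse 2.

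Lgals9 had a slightly higher mean in Klf3-/- eosinophils, with overlap on both scales, and did not pass the test. Its deposited intensities were 540.4, 598 and 356 in Klf3-/- mice and 463, 375 and 258 in WT mice. The genotypes overlapped, since Klf3-/- mouse 3 lay below WT mice 1 and 2. The normalised log2 values were 8.97, 8.58 and 8.93 in Klf3-/- mice and 9.10, 7.96 and 8.73 in WT mice, so that WT mice held both the highest and the lowest array. The log2 fold change was 0.23 with a standard error of 0.31 (95% interval −0.50 to 0.96, adjusted p = 0.966 from limma). Within replicate numbers 1 to 3 the normalised differences were −0.13, 0.62 and 0.20, so 2 of 3 pairs were higher. As deposited these differences were 0.22, 0.67 and 0.46, so every pair was higher. With the replicate number as a block the standard error was 0.22 and the adjusted p from limma was 0.860. The log2 fold change turned to −0.087 without WT mouse 2 and was 0.48 without WT mouse 1.

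Lgals3bp was the 1 measured member with a lower mean in Klf3-/- eosinophils, and it did not pass the test either. Its deposited intensities were 429.9, 269 and 169.9 in Klf3-/- mice and 578, 397 and 256 in WT mice. In both genotypes mouse 1 was the highest and mouse 3 the lowest, and the genotypes overlapped. The normalised log2 values were 8.63, 7.44 and 7.83 in Klf3-/- mice and 9.42, 8.03 and 8.72 in WT mice, again with overlap. Within each replicate number the Klf3-/- array was the lower one, with differences of −0.79, −0.59 and −0.88 log2 units after normalisation and of −0.43, −0.56 and −0.59 as deposited. The normalised mean was 7.97 ± 0.61 in Klf3-/- mice and 8.72 ± 0.69 in WT mice (SD, n = 3 each). This is a log2 fold change of −0.75 (standard error 0.43, 95% interval −1.76 to 0.26). Its adjusted p was 0.910 in limma and its unadjusted p was 0.121. With the replicate number as a block the standard error was 0.18, the unadjusted p was 0.00847 and the adjusted p was 0.599. Without WT mouse 1 the log2 fold change was −0.41, without WT mouse 2 it was −1.09, without Klf3-/- mouse 1 it was also −1.09 and without Klf3-/- mouse 2 it was −0.49. The unadjusted p from limma was 0.0356 without WT mouse 2 and 0.0411 without Klf3-/- mouse 1.

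**Figure D1:**
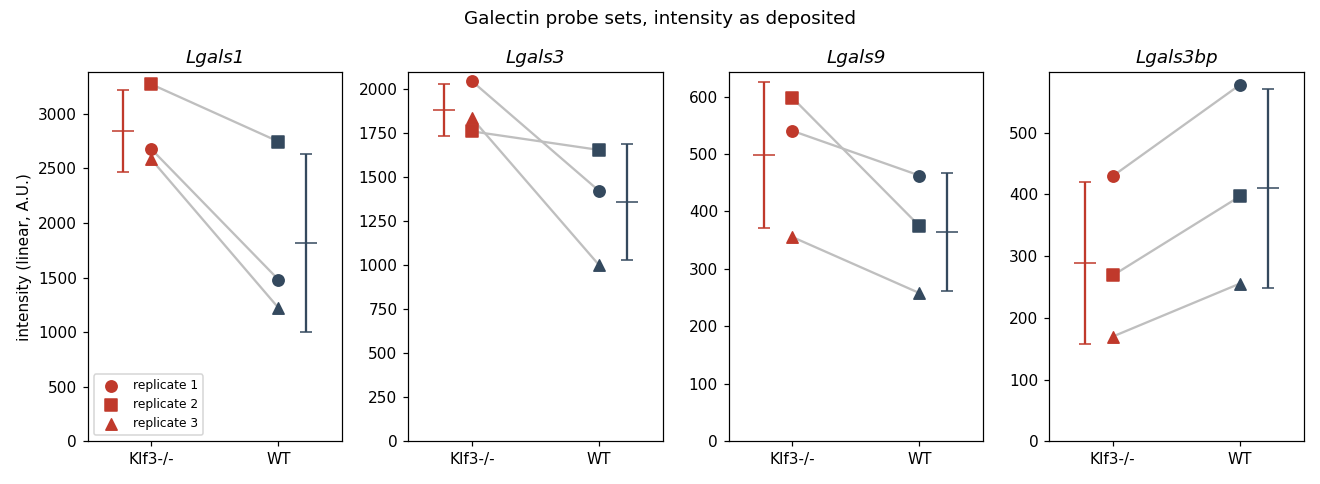
Deposited intensities (linear, arbitrary units, each panel on its own scale from 0) of the 4 galectin probe sets in Klf3-/- (red) and WT (dark) eosinophils. Markers and grey lines join arrays of the same replicate number, and horizontal bars with whiskers are the mean ± SD of 3 mice. Lgals3 in Klf3-/- mice sits at 1762 to 2048, above all WT mice (1003 to 1657), and Lgals3bp slopes the other way in every replicate.

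**Figure D2:**
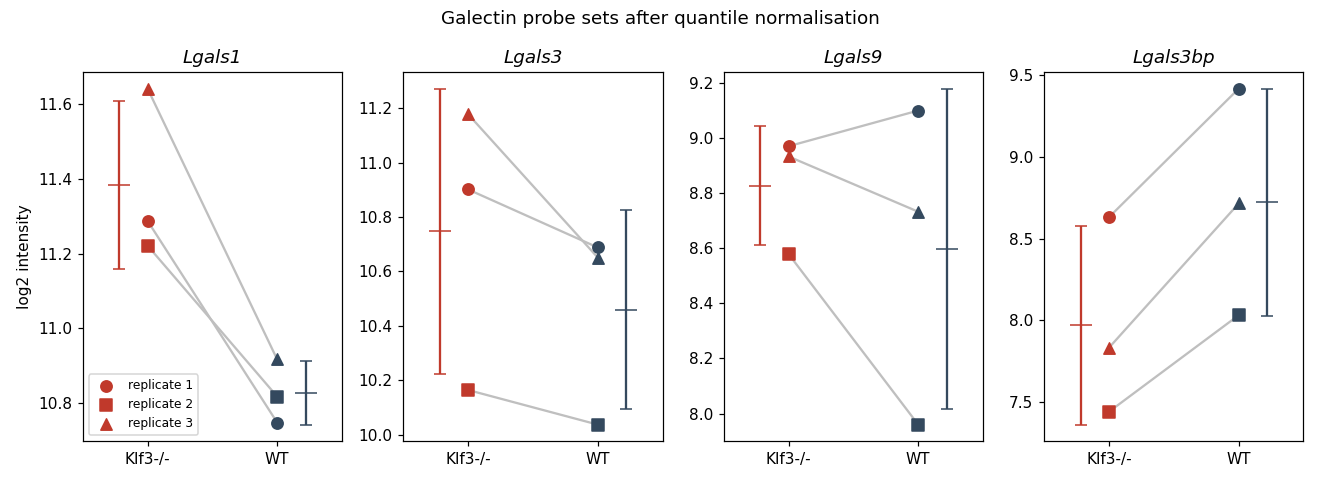
The same probe sets as log2 intensities after quantile normalisation, each panel on its own axis, with markers, lines and bars as for the deposited intensities (mean ± SD, n = 3). Lgals1 separates the genotypes (Klf3-/- 11.22 to 11.64, WT 10.75 to 10.92), whereas Lgals3 overlaps, with the replicate 2 arrays lowest.

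Across the members, 0 of 4 probe sets reached an adjusted p under 0.05 in limma, as did 0 of all 45037 (0%), and a one-way analysis of variance gave 0 as well, with 2240 probe sets at an unadjusted p under 0.05, 900 of them higher and 1340 lower in Klf3-/- eosinophils. In limma 1 of 4, Lgals1, had an unadjusted p under 0.05, where 5.5% of all probe sets lay, 1398 of these (3.1%) higher and 1077 lower in Klf3-/- eosinophils. The limma split was 1150 to 62 on the values as deposited and 1599 to 798 after cyclic loess normalisation. With the replicate block 2 of 4, Lgals1 and Lgals3bp, had an unadjusted p under 0.05, as did 3212 of all 45037 probe sets. After normalisation 1 of 4 members, Lgals1, had no overlap between genotypes, against 11% of all probe sets (4.49% with Klf3-/- above), and as deposited 1 of 4, Lgals3, had every Klf3-/- array above every WT array, against 3.61%. A higher mean in Klf3-/- was seen for 3 of 4 members and for 45.3% of all probe sets. The median log2 fold change of the 4 members was 0.26, against −0.04 over 17097 genes. The choice of scale thus moved which galectin separated the genotypes, and it turned no member's direction.

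A ratio of 2 probe sets on the same array is free of any scale factor of that array, so the 6 ratios among the 4 members were also compared. This measure was chosen after Lgals3bp had been seen to be the 1 lower member, and the 3 ratios over Lgals3bp share its values, so they are 1 observation and not 3. The log2 ratio of Lgals3 over Lgals3bp was 2.25, 2.71 and 3.44 in Klf3-/- mice and 1.30, 2.06 and 1.97 in WT mice, with no overlap. It averaged 2.80 ± 0.60 in Klf3-/- mice and 1.78 ± 0.41 in WT mice (SD, n = 3 each), a difference of 1.02 log2 units, which is 2.03-fold. The ratio of Lgals9 over Lgals3bp was 0.33, 1.15 and 1.07 in Klf3-/- mice and −0.32, −0.08 and 0.01 in WT mice, again without overlap and with a difference of 0.98. That of Lgals1 over Lgals3bp differed by 1.25 and overlapped. These 3 ratios, and that of Lgals1 over Lgals3, were higher in Klf3-/- within each replicate number (exact paired permutation p = 0.25 each, the smallest that 3 pairs allow). The exact two-sided permutation tests gave p = 0.1, 0.1 and 0.2 for Lgals3, Lgals9 and Lgals1 over Lgals3bp (0.3, 0.3 and 0.4 when adjusted over the 6 ratios), and 0.1 is the smallest possible. The ratios that leave out Lgals3bp differed by 0.04 to 0.27, with exact permutation p-values of 0.4 to 1.

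**Figure D3:**
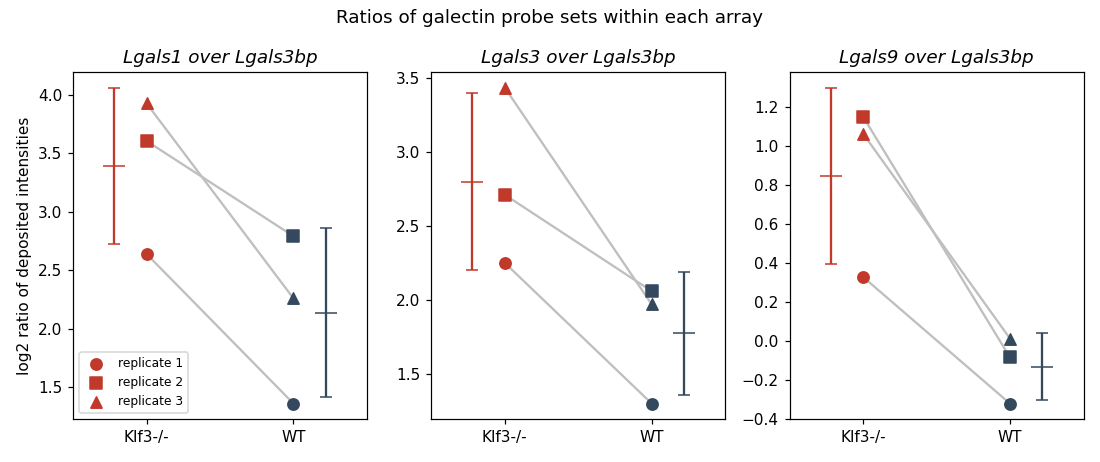
Log2 ratios of deposited intensities within each array (each panel on its own axis), Klf3-/- (red) beside WT (dark), with lines joining the same replicate number and bars for the mean ± SD of 3 mice. In the panels for Lgals3 and Lgals9 over Lgals3bp all Klf3-/- arrays sit above all WT arrays.

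The galectin family genes outside the rule gave further values. Of 7 listed, 6 were measured, Lgals6 not being among the named probe sets, and of these 5 had a higher and 1 a lower mean in Klf3-/- eosinophils. None passed over all probe sets. Lgals4, a tandem-repeat galectin of the gut epithelium, read 6.18 ± 0.46 log2 units in Klf3-/- mice and 5.54 ± 0.21 in WT mice (SD, n = 3 each). This is a log2 fold change of 0.65 (unadjusted p = 0.0469, adjusted p = 0.901 from limma), and its genotypes overlapped. Lgals7, known from stratified epithelia, had 0.37 and Lgalsl, a galectin-like gene, had 0.03. Lgals12, known from adipocytes, had 0.21 and Lgals2 had 0.04, and both of these lay below the olfactory receptor level, at 4.54 and 4.56. For each a second probe set had the opposite sign, −0.06 for Lgals12 and −0.13 for Lgals2. Grifin, a lens protein related to galectins, had −0.06, which turned to 0.15 as deposited. The median of the 6 was 0.12.

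**Figure D4:**
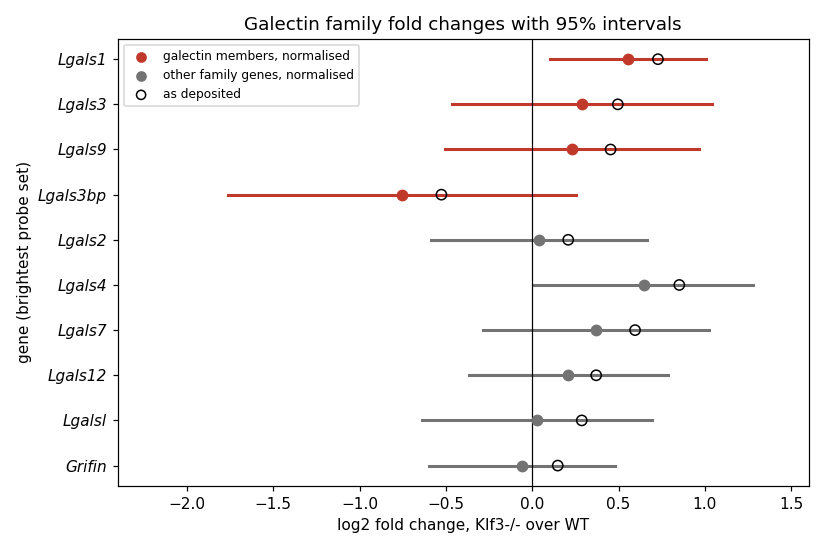
Log2 fold change (Klf3-/- over WT) of each measured galectin gene, members in red and other family genes in grey, with 95% intervals from limma, and open circles for the same value as deposited. The interval of Lgals1 runs from 0.10 to 1.01, that of Lgals3bp from −1.76 to 0.26, and every open circle lies to the right of its filled one.

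Galectins act through glycoprotein partners. A list of 30 receptors, matrix ligands and intracellular partners was measured in full, 16 being higher and 14 lower in Klf3-/- eosinophils, and 44.8% of all genes had a higher mean. The median log2 fold change of the list was 0.05. None passed over all probe sets. At an unadjusted p under 0.05, 4 were higher and 1 lower, where 3.61% and 2.47% of all genes lay. The matrix ligands fibronectin (Fn1) and nidogen (Nid1) had log2 fold changes of 2.38 and 1.09, and Egfr, a receptor tyrosine kinase retained at the surface by galectin lattices, had 1.85. Pdpn, the sialoglycoprotein podoplanin and a reported galectin-8 partner, had 1.71. The adjusted p-values of these in limma were 0.663, 0.736, 0.738 and 0.868. For Pdpn the WT mean of 4.95 log2 units lay below the olfactory receptor level of 5.10, and the Klf3-/- mean of 6.66 lay above it. WT mouse 1 read 3.65 for this gene, whereas the other WT mice lay above that level. All 6 probe sets for Egfr had a higher mean, with log2 fold changes of 0.44 to 2.87. Havcr2, which encodes TIM-3, a receptor for galectin-9, read 7.59 ± 0.48 in Klf3-/- mice and 8.53 ± 0.51 in WT mice (SD, n = 3 each). This is a log2 fold change of −0.94 (adjusted p = 0.868), with overlap.

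Whether a partner can be bound depends on its sugar chains. Of 17 enzymes and transporters that build or cap galactose-containing glycans, 13 were measured, 6 being higher and 7 lower around a median of −0.04 (0.16 as deposited). B4galt1, the galactosyltransferase that makes the N-acetyllactosamine unit galectins recognise, read 8.86 ± 0.19 in Klf3-/- mice and 8.29 ± 0.37 in WT mice (SD, n = 3 each). The log2 fold change of 0.57 (unadjusted p = 0.0489, adjusted p = 0.901 from limma) did not pass. The genotypes did not overlap after normalisation, as was so for 11% of all probe sets, and they overlapped as deposited. Mgat4b, an enzyme that adds a branch to N-glycans, had −0.34 (adjusted p = 0.919). Of 16 interferon-stimulated genes, listed because Lgals9 and Lgals3bp respond to interferon, 11 were measured, with 4 higher and 7 lower and a median of −0.19 (0.07 as deposited). The nucleotide kinase Cmpk2 had 0.96 with its brightest probe set and 2.17 with its other (adjusted p = 0.663 and 0.200 from limma). That other probe set had a log2 mean of 5.18, near the olfactory receptor level of 5.10. With a difference of 2.17, its WT mean lay below that level. Mx1, an antiviral GTPase, had −0.74 (adjusted p = 0.910 from limma).

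Cells other than eosinophils express galectins, Lgals3 being abundant in macrophages and Lgals1 in fibroblasts, so markers of these cells are set beside the galectins. The sort gate asked for CD45, CD11b, F4/80, Siglec-F and high side scatter. By its terms it leaves out fibroblasts and adipocytes, whereas macrophages carry CD45, CD11b and F4/80. The log2 means over all arrays were 12.33 and 12.71 for the stromal markers Dcn and Col3a1. They were 11.72 for the adipocyte marker Fabp4 and 12.12 for the macrophage marker C1qa. Of the 4 measured adipocyte markers 2 lay above the olfactory receptor level, while Adipoq (4.75) and Lep (3.92) lay below it. Which cells passed the gate was not tested. Of 11 stromal fibroblast markers all 11 had a higher mean in Klf3-/-, 7 of them at an unadjusted p under 0.05 and 0 past the adjusted threshold, with a median log2 fold change of 1.03. Over all genes 44.8% had a higher mean and 3.61% were higher at an unadjusted p under 0.05. The markers were listed with earlier results of these data known, which limits this comparison. The mean log2 intensity of the stromal markers per array was 9.25 to 10.37 in Klf3-/- and 8.11 to 8.88 in WT, without overlap. By their mean over all arrays all 11 lay above the olfactory receptor level. Pi16 did so only through its Klf3-/- arrays (5.36, 6.53 and 5.13). Its WT arrays read 4.62, 4.50 and 4.80, all below that level. The brightest were Dcn (log2 fold change 0.71) and Col3a1 (0.30, and 1.36 with its second probe set). Beside Dcn, the matrix genes Dpt (1.86), Mfap5 (1.48) and Col6a2 (1.45) and the genes Igfbp6 (1.88), Cd34 (1.34) and Pi16 (1.03) made up the 7, with adjusted p-values of 0.200 to 0.901. Of 11 macrophage markers 10 had a higher and 1 a lower mean in Klf3-/-, with a median of 0.21 and mean log2 intensities per array of 9.47 to 10.85 in Klf3-/- and 9.04 to 9.88 in WT. C1qa and C1qb, the brightest of these, had log2 fold changes of 0.14 each, and Lyve1, a marker of resident macrophages, had 2.21 (unadjusted p = 0.0154, adjusted p = 0.862). The 1 lower marker was Mertk, with −0.80 (adjusted p = 0.916 from limma). Its Klf3-/- arrays lay below all WT arrays as deposited and overlapped them after normalisation. Of 7 measured dendritic cell markers 6 were lower, with a median of −0.73 and mean log2 intensities of 8.24 to 8.37 in Klf3-/- and 8.69 to 9.62 in WT. Itgax (CD11c) had −1.69 and the MHC class II genes H2-Eb1 and H2-Ab1 had −0.79 and −0.44, with adjusted p-values of 0.600, 0.817 and 0.910 from limma. The higher marker was Cd209a, with 0.28. Of the 8 eosinophil markers 3 were higher and 5 lower, and their mean ranged from 4.04 to 4.42 in Klf3-/- and from 4.25 to 4.31 in WT. Of 4 measured adipocyte markers 1 was higher and 3 lower, Fabp4 with −0.17 and Lipe with −0.11, the second of which was 0.14 as deposited. The part of other cells in the galectin values was not tested.

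**Figure D5:**
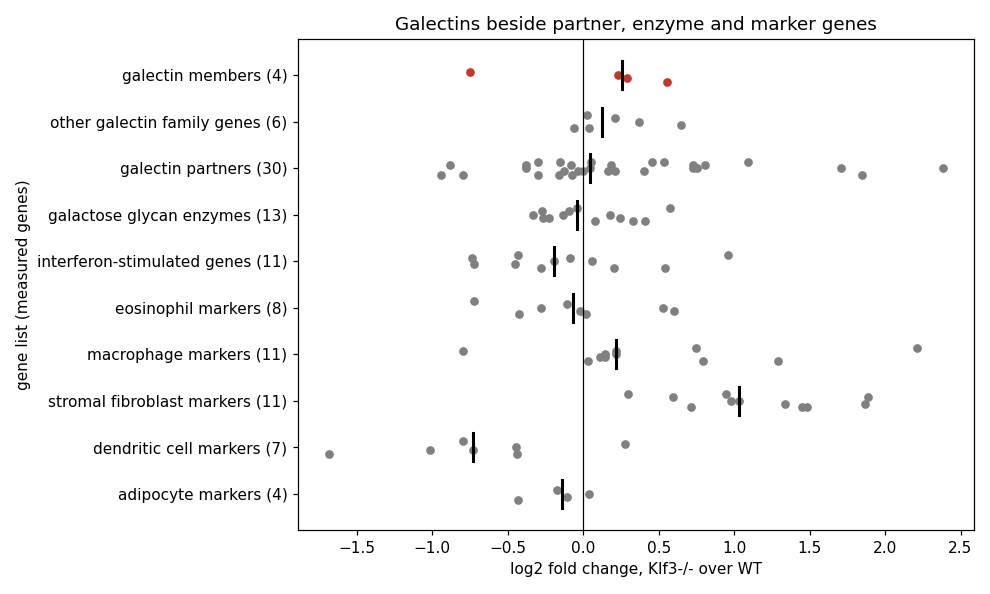
Log2 fold change (Klf3-/- over WT, brightest probe set) of every measured gene in each list, one point per gene, with the members in red and black bars for list medians. The galectin members have a median of 0.26, the stromal fibroblast markers 1.03 and the dendritic cell markers −0.73.

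For each member the 3 genes with the most similar pattern over the 6 arrays were listed, by Pearson's r of normalised log2 values among 11114 other genes above the olfactory receptor level. They are the highest of many values over 6 points that share arrays, and are given as a description. For Lgals1 they were Ankfy1 (r = 0.991), Fgfr1 (0.986) and Cldn10 (0.982), with log2 fold changes of 0.37, 1.44 and 1.93. For Lgals3 they were Vamp5 (0.989), Sfi1 (0.981) and Scaf1 (0.980), with 0.37, 0.20 and 0.15. For Lgals9 they were Hexim1 (0.995), S1pr1 (0.994) and Prkacb (0.989), and for Lgals3bp they were Abcg3 (0.986), Med1 (0.986) and Fcrl1 (0.985). No listed gene was shared between members.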

How the data were processed

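Arrays were made by the authors from RNA of sorted eosinophils, amplified with a pico-scale Affymetrix kit and analysed in Partek Genomics Suite, and a figure legend names RMA normalisation. The deposited intensity values are linear, and the RMA steps behind them are unstated in the paper and labels. Log2 values were quantile-normalised between arrays and compared with limma 3.58.1 (R 4.3.3), with genotype as the sole factor and Benjamini-Hochberg adjustment over all 45037 probe sets at 0.05. The fit was also run on simulated data, with shifts larger than the main log2 fold changes of the members. That run does not show what the fit finds at their size. Single genes were also compared by exact permutation tests and by the one-sided Mann-Whitney test of the methods. Of the probe sets 28898 had 1 gene symbol, 551 several and 15588 none in the platform annotation, and the brightest probe set with 1 symbol stood for a gene. The background level is the 95th percentile of the means of 44 olfactory receptor probe sets. The small number of arrays limits precision.

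The members and lists were chosen with earlier results of these data known. Named genes were all member and family genes, list members at an unadjusted p under 0.05 or the 2 with the smallest p, the 2 brightest of a marker list and the 3 most similar genes. Mertk and Cd209a were named as the markers of opposite sign in the macrophage and dendritic cell lists. Same-numbered arrays deviated together from their genotype means (r = 0.17, 0.23 and 0.21) and the labels call the mice litter-matched. The number was therefore taken to pair the arrays in the replicate block and in the differences within replicate numbers. The main fit, its intervals and the tests of 3 mice against 3 left this pairing out. Alternatives were other scales, an offset of 16, the replicate block, trend and robust fitting, an analysis of variance per probe set, a filter on dim probe sets and leaving out each array. The methods name a two-way analysis of variance whose second factor is not given. Figures were drawn with matplotlib 3.10.9.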

Additional observations from a re-analysis of the deposited data

How the results depend on the processing

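Over 16 alternatives the log2 fold changes of Lgals1, Lgals3 and Lgals3bp kept their direction in all 16 and that of Lgals9 in 15, and no member passed the adjusted threshold in any of them, with adjusted p-values of 0.513 to 1.00. Leaving out each array in turn gave 0.42 to 0.66 for Lgals1, 0.07 to 0.60 for Lgals3, −0.087 to 0.48 for Lgals9 and −1.09 to −0.41 for Lgals3bp, the Lgals9 value of −0.087 being the one without WT mouse 2. The other settings gave 0.52 to 0.73, 0.29 to 0.50, 0.22 to 0.45 and −0.75 to −0.53. Lgals1 had an unadjusted p under 0.05 in 12 of 16 alternatives and Lgals3bp in 5.

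The number of galectin probe sets at an unadjusted p under 0.05, 1 as reported, was 0 on the values as deposited, 2 with the replicate block, 2 with that block on the values as deposited and 1, Lgals3bp, with it on values centred on each array's median. The unadjusted p of Lgals1 from limma was 0.0598 in that setting. The last pair of settings was chosen after seeing the data. The number was 0 to 2 when each array was left out. Over all probe sets the number was 2475 as reported, 1212 as deposited, 1517 among the 24912 probe sets above the olfactory receptor level, where fewer were tested, 3212 with the replicate block and 3966 with the block on the values as deposited, and 2031 to 2694 when each array was left out. The cause of these differences was otherwise not tested. The block changed no call at the adjusted threshold. Averaging a gene's probe sets gave nothing further, as each measured member had 1.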
